A study of Mus musculus with 8 samples.

Results

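The genes described here are 39 enzymes, carriers and regulators of glycolysis, of the pentose phosphate pathway and of pyruvate entry into mitochondria, taken by name from the 23413 genes of a mouse RNA sequencing table. All 39 were in the table, and all 39 were among the 11415 genes tested. The choice used no measured value of the genes, but it was made with earlier results of these data known. Expression was measured in 8 libraries: 3 of repopulating microglia (strain label DTRmg), 3 of bone-marrow macrophages (strain label DTRmg) and 2 of wild-type microglia (strain label DTR). Microglia are macrophages that reside in brain tissue, and by its title the series concerns interleukin-1 signalling and how microglia renew themselves. The protocol text is the same for every library, wild type included: subcutaneous tamoxifen (2 mg each on postnatal days 12 and 14), then 3 intraperitoneal injections of 500 ng diphtheria toxin to deplete microglia. Brain tissue was digested with papain and enriched on Percoll, and the cells were sorted by flow cytometry. The labels name no driver of the toxin receptor, no age at collection and no interval after depletion. Whether the bone-marrow macrophages came out of the marrow or the brain is not stated, and neither is the animal behind each replicate, so the p-values reflect only how far these libraries spread, which may be technical. Strain label and group cannot be told apart in the comparisons with wild type.

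Glycolysis splits glucose into pyruvate in the cytosol. Hexokinases trap glucose as glucose 6-phosphate. Glucose-6-phosphate isomerase passes it on to phosphofructokinase, which commits it to breakdown, and the lower enzymes recover ATP and NADH. Lactate dehydrogenase then interconverts pyruvate and lactate. The pentose phosphate pathway branches off at glucose 6-phosphate and yields NADPH and ribose phosphate, which serve reductive synthesis, the handling of oxidants and the making of nucleotides. Pyruvate that is not made into lactate enters mitochondria through the carrier Mpc1-Mpc2 and is oxidised by the pyruvate dehydrogenase complex, which the Pdk kinases switch off. In macrophages, glycolysis is known to increase with inflammatory activation, and the transcription factor subunit Hif1a is a known activator of many of these genes.

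The promoter windows of the 4 genes on which the results below turn most are given here, from RefSeq's table for GRCm38.p6, each holding 250 bases before to 50 bases after an annotated start, 5′ to 3′ on the gene's strand. Ldha and Ldhb encode the subunits of lactate dehydrogenase, which differed in opposite directions between bone-marrow macrophages and wild-type microglia. Khk encodes ketohexokinase and Gpi1 glucose-6-phosphate isomerase. Capitals mark the letters ACGTG or GCGTG on either strand, the core of the element that hypoxia-inducible factors bind. A run of CACGTG in capitals is also an E-box, a motif that holds ACGTG on each strand. For Ldha the more upstream of its listed windows is shown.
Ldha, chr7:46845554-46845853 (+): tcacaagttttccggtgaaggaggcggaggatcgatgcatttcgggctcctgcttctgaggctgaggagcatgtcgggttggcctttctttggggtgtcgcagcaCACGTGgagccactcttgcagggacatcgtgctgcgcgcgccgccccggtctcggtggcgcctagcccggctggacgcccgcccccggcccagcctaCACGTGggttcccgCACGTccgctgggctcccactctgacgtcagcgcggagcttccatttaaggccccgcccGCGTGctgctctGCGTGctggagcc
Ldhb, chr6:142507908-142508207 (-): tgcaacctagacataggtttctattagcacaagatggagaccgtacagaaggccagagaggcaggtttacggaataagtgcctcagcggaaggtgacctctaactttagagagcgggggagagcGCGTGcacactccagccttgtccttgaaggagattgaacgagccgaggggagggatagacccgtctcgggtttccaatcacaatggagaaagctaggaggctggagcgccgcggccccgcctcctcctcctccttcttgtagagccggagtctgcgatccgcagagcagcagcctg
Khk, chr5:30921309-30921608 (+): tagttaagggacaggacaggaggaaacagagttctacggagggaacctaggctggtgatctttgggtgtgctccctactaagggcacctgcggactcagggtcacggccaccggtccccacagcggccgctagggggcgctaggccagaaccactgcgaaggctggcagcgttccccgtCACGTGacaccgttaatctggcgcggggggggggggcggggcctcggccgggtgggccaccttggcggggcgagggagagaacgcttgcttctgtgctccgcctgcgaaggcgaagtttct
Gpi1, chr7:34230287-34230586 (-): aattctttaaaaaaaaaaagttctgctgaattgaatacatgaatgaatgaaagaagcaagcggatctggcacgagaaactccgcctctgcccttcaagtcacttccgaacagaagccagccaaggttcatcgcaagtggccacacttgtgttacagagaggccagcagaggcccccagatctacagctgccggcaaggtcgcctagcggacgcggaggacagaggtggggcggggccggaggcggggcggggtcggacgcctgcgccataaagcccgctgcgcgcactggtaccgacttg

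The Ldha window shown held 7 matches, of which the 2 E-boxes gave 4, while the Ldhb window held 1 and the Gpi1 window 0. The other listed Ldha window, which is not shown, held 2 matches and 0 E-boxes. The Khk window held 2 matches, both in its E-box. Over the 39 genes, 43 of 57 listed windows (75.4%) held ACGTG or GCGTG, beside 14380 of all 32851 windows (43.8%). The E-box CACGTG was in 12.3% of the windows of these genes, beside 7.15% of all windows. The windows of these genes also had a higher median GC content, 61% beside 52.7% for all windows. A match is a string of letters in this window and was not tested as a binding site.

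Libraries held 5918944 to 12476427 reads in genes, and the values below, called normalised counts, are counts that the authors scaled by library. Replicate 3 of the repopulating microglia stood apart from the other two: it had the lowest value of the 3 repopulating libraries for 25 of the 39 genes (64.1%, beside 43.7% of all genes tested) and the highest for 11 (28.2%, beside 41.9%). Results on repopulating microglia are therefore also given without it. The microglial genes P2ry12 and Sall1 checked the labels. P2ry12 stood at 36757, 27059 and 34119.8 normalised counts in repopulating microglia, at 2959.6, 4044 and 3020.2 in bone-marrow macrophages and at 75179.5 and 68682 in wild-type microglia. Sall1 stood at 2594, 1864 and 6101 in repopulating microglia, at 35.8, 9.55 and 15.0 in bone-marrow macrophages and at 3179.8 and 4056 in wild-type microglia. Both genes were thus far lower in every bone-marrow macrophage library than in any microglial library, and P2ry12 was not absent there. They belong to a list of 10 microglial genes, not all of which separated the groups as far. All 10 were lower in bone-marrow macrophages than in wild-type microglia, and 9 were higher in repopulating microglia than in bone-marrow macrophages. Of these 9, Fcrls was only 1.36-fold higher. The exception, Cx3cr1, overlapped, at 22578, 19166 and 23758 in repopulating microglia and 19847, 21977 and 18454 in bone-marrow macrophages. In wild-type microglia Cx3cr1 stood at 63892 and 68599. Between repopulating and wild-type microglia 4 of the 10 were lower (P2ry12, Fcrls, Gpr34 and Cx3cr1) and 0 higher. Of all genes tested, 3.75% were lower and 4.86% higher there. Summed counts of 10 neutrophil markers were 1700.1 to 3143 in repopulating microglia, 837 to 1389 in bone-marrow macrophages and 26910.3 to 29107 in wild-type microglia, and all 10 were lower in both other groups than in wild type. Summed counts of 8 genes of dividing cells were 552 to 862 in repopulating microglia, 4730.1 to 5747 in bone-marrow macrophages and 608 to 832 in wild-type microglia. The part of other cells and of division in the results below was not tested. In sorted bulk populations such as these, fewer cells of a type and less RNA per cell cannot be told apart.

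Of the 39 genes, 22 passed the test (limma, Benjamini-Hochberg adjusted p under 0.05 over all 11415 genes) in at least 1 comparison. Between repopulating and wild-type microglia 2 were higher and 1 was lower, beside 4.86% of all genes tested higher and 3.75% lower. An unadjusted p under 0.05 was seen there for 8 of the 39, beside 3014 of all 11415 genes. Between bone-marrow macrophages and wild-type microglia 13 were higher and 6 lower, beside 21.3% higher and 22.2% lower of all genes. Between repopulating microglia and bone-marrow macrophages 7 were higher and 6 lower, beside 16.0% higher and 14.9% lower. The shares of these genes called, 7.69%, 48.7% and 33.3%, lay near those of all genes, 8.61%, 43.5% and 30.9%, so the counts by themselves set these genes apart in no comparison. Their median log2 differences were 0.13, 0.13 and -0.07, beside -0.02, -0.01 and 0.00 for all genes. The comparisons share libraries, so their counts are not independent of each other. Between repopulating and wild-type microglia the genes called higher became 13 without repopulating replicate 3, 1 without repopulating replicate 2 or bone-marrow replicate 1 or 2, and 0 without repopulating replicate 1 or either wild-type replicate. Those called lower became 3 without repopulating replicate 3 and 0 without repopulating replicate 1 or any bone-marrow or wild-type replicate. Between bone-marrow macrophages and wild-type microglia the genes called higher became 8 without wild-type replicate 2, and those called lower became 2 without wild-type replicate 1 and 10 without repopulating replicate 3. Between repopulating microglia and bone-marrow macrophages those called higher became 11 without repopulating replicate 3. Of all 11322 genes tested without that replicate, 1700 were called higher and 1269 lower between repopulating and wild-type microglia. Between bone-marrow macrophages and wild-type microglia 3414 of them were called lower, and between repopulating microglia and bone-marrow macrophages 2660 were called higher. With libraries scaled to equal totals the median of all genes shifted to -0.12, 0.13 and -0.25, and the genes called higher and lower became 2 and 2, 16 and 4, and 5 and 15 of the 39. Of all 11415 genes, 441 were then called higher and 726 lower between repopulating and wild-type microglia, 3000 and 2069 between bone-marrow macrophages and wild-type microglia, and 1172 and 2924 between repopulating microglia and bone-marrow macrophages. No difference that passed the test and is named here changed sign under another scaling.

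**Figure D1:**
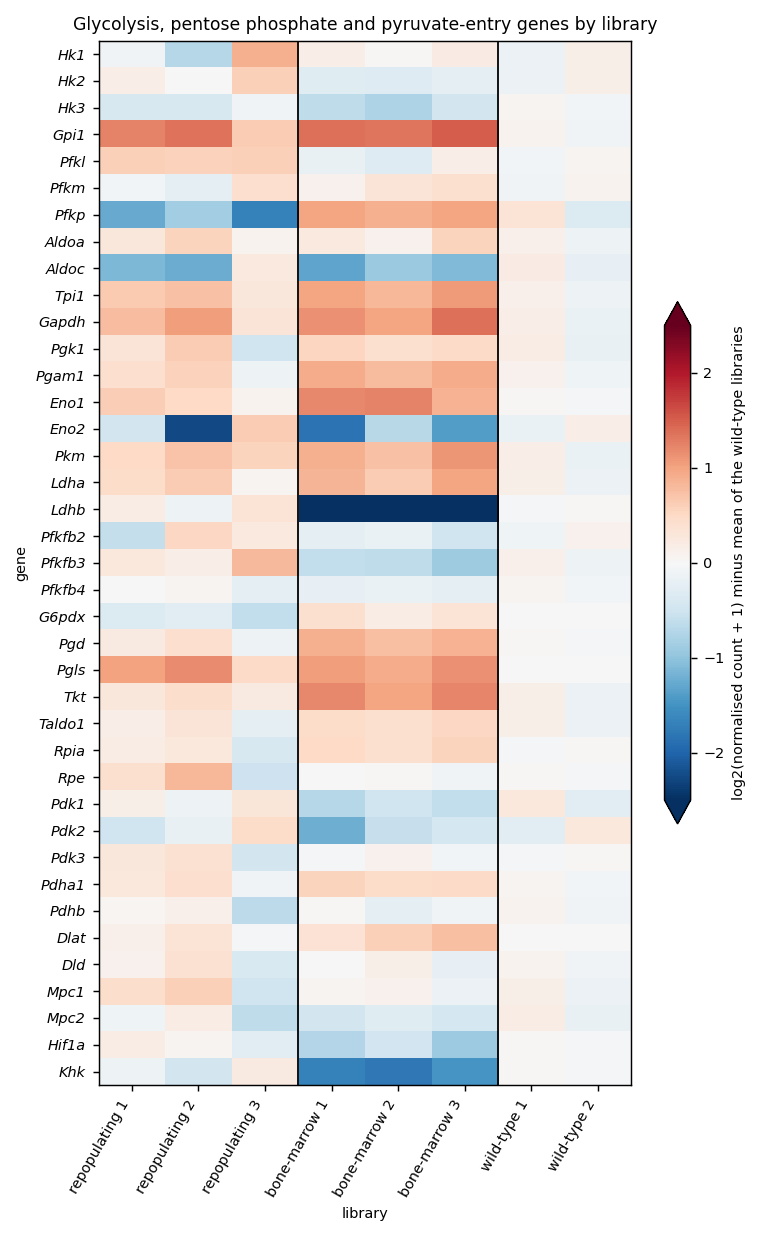
Level of each of the 39 genes (rows) in each of the 8 libraries (columns), as log2(normalised count + 1) minus the mean of the 2 wild-type libraries, with red above and blue below that mean and colours capped at 2.5. Ldhb and Khk are blue in all 3 bone-marrow macrophage libraries, Gpi1 and Pgls are red in all 6 repopulating and bone-marrow libraries, and Pfkp is blue in the repopulating and red in the bone-marrow libraries.

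The largest difference among the 39 genes was in lactate dehydrogenase. Ldhb, the subunit that predominates in heart-type tetramers, had 4749, 3802 and 5263 normalised counts in repopulating microglia, 339, 525 and 469 in bone-marrow macrophages and 4088 and 4245 in wild-type microglia. The repopulating and wild-type ranges overlapped, and every bone-marrow macrophage library lay far below both. Ldhb was 9.51-fold lower in bone-marrow macrophages than in wild-type microglia (log2 difference -3.25 ± 0.21, SE, limma adjusted p = 1.77e-05) and 10.4-fold higher in repopulating microglia than in bone-marrow macrophages (3.38 ± 0.19, adjusted p = 1.24e-05). Between repopulating and wild-type microglia its difference was 0.13 ± 0.21 (adjusted p = 0.718).

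Ldha, the muscle-type subunit, took the other direction. It had 3145, 3552 and 2415 normalised counts in repopulating microglia, 4126, 3562 and 4529 in bone-marrow macrophages and 2530.2 and 2076 in wild-type microglia. Bone-marrow macrophages were 1.77-fold above wild-type microglia with no overlap (0.82 ± 0.19, adjusted p = 0.00898), while the repopulating libraries overlapped those of wild type and lay just below those of bone marrow. Without wild-type replicate 2 the call for Ldha was lost (adjusted p = 0.0842). Per length of merged exons, Ldha made up 23.9, 30.7 and 17.9% of the summed Ldha and Ldhb level in repopulating microglia, 85.2, 76.3 and 82.1% in bone-marrow macrophages and 22.7 and 18.8% in wild-type microglia. The means were 24.2 ± 6.42%, 81.2 ± 4.54% and 20.8 ± 2.73% (SD, n = 3, 3 and 2). With the length of the longest transcript in place of merged exons they were 32.4 ± 7.69%, 86.7 ± 3.44% and 28.4 ± 3.38%. Ldhb shares 98.0% identity over 1002 of its 1304 transcript bases with the processed pseudogene Gm5514, which has no entry of that name in the table, so the assignment of some of its reads is uncertain, while no such copy was found for Ldha. By these shares, transcripts of both microglial groups were mostly Ldhb and those of bone-marrow macrophages mostly Ldha. Per kilobase of merged exon Ldhb was the highest of the 39 genes in repopulating and in wild-type microglia, and ranked 14 in bone-marrow macrophages.

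**Figure D2:**
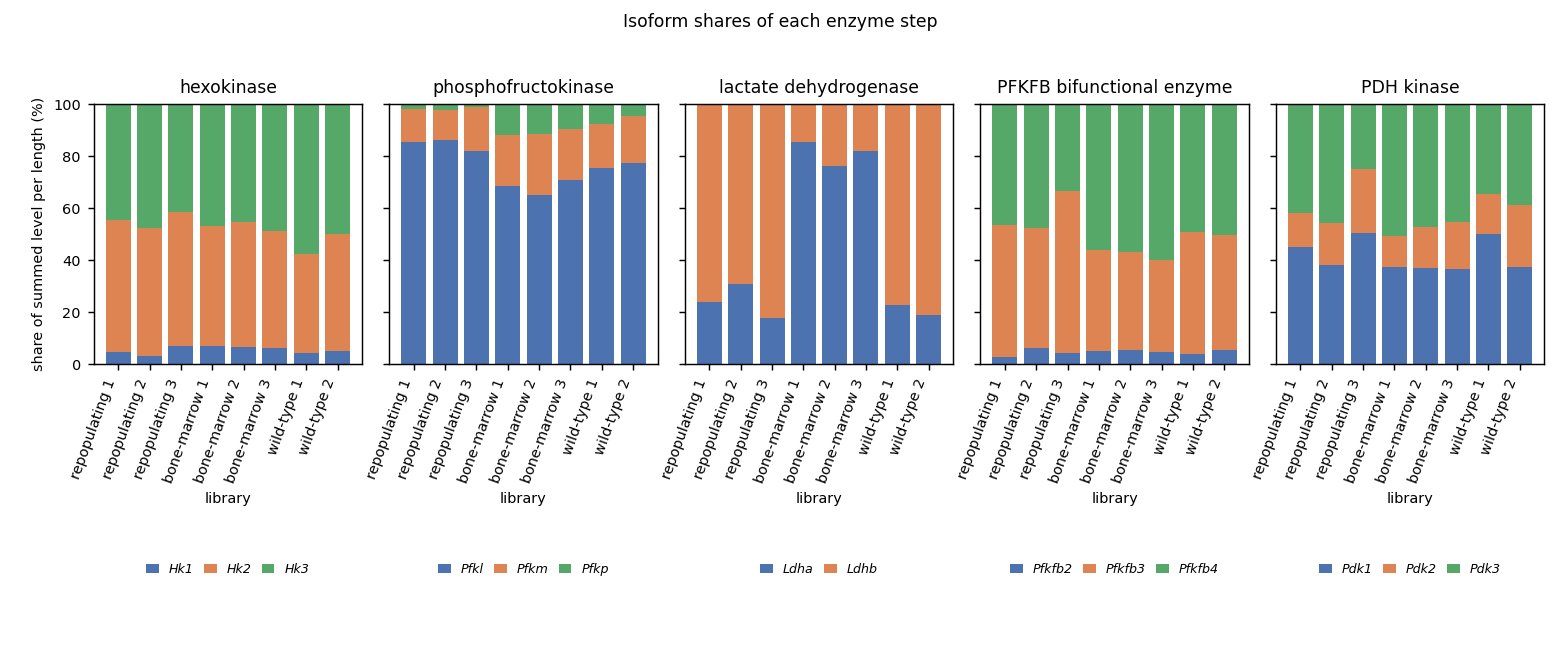
Share of each gene, in percent, in the summed level per kilobase of merged exon for 5 enzyme steps with several genes, for each of the 8 libraries. Ldha holds 76.3% to 85.2% of the lactate dehydrogenase level in bone-marrow macrophages and 17.9% to 30.7% in the 5 microglial libraries, and Pfkp is a visible part of phosphofructokinase mainly in bone-marrow macrophages.

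At the entry to glycolysis the hexokinases Hk2 and Hk3 carried nearly all of the hexokinase level, and Hk1 held 4.83 ± 1.85% of it in repopulating microglia, 6.54 ± 0.214% in bone-marrow macrophages and 4.43 ± 0.534% in wild-type microglia. Hk2, the inducible form that can bind mitochondria, had 1585, 1426 and 2129.7 normalised counts in repopulating microglia and 1154, 1132 and 1215 in bone-marrow macrophages, beside 1272 and 1574 in wild-type microglia. It was 1.45-fold higher in repopulating microglia than in bone-marrow macrophages, with no overlap (0.53 ± 0.16, adjusted p = 0.0371). That call did not hold under 11 of 19 alternatives, with adjusted p up to 0.284 at equal totals and 0.0679, 0.113, 0.110, 0.0865, 0.0507 and 0.0502 without repopulating replicate 1, bone-marrow replicate 1, 2 or 3, or wild-type replicate 1 or 2. Hk3, a hexokinase of myeloid cells, had 854, 850.1 and 1050.4 in repopulating microglia, 720.0, 656 and 822 in bone-marrow macrophages and 1179.6 and 1069.6 in wild-type microglia. It was 1.54-fold lower in bone-marrow macrophages than in wild-type microglia (-0.62 ± 0.15, adjusted p = 0.0115), a call lost without wild-type replicate 1 (adjusted p = 0.0922). Neutrophil markers were lower in the same direction, and their part in the Hk3 difference was not tested. Hk1 ranged over 129.9 to 399.7 normalised counts, with the lowest and the highest value both in repopulating microglia, and passed in no comparison in the main fit to all libraries.

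Glucose-6-phosphate isomerase was high in both other groups relative to wild type. Gpi1 had 4901, 5309 and 3238 normalised counts in repopulating microglia, 5384, 5240.3 and 5955 in bone-marrow macrophages and 2194 and 1959 in wild-type microglia, and neither of the first 2 groups overlapped wild type. It was 2.11-fold higher in repopulating than in wild-type microglia (1.08 ± 0.21, adjusted p = 0.0185) and 2.66-fold higher in bone-marrow macrophages than in wild-type microglia (1.41 ± 0.21, adjusted p = 0.000938). Repopulating microglia and bone-marrow macrophages overlapped (-0.33 ± 0.19, adjusted p = 0.213). The call against wild type held under all alternatives for bone-marrow macrophages. For repopulating microglia it was lost without repopulating replicate 1 (adjusted p = 0.0587), without wild-type replicate 1 (0.133) or 2 (0.135), and with only the 2 groups fitted (0.104). Gpi1 has a copy with 98.7% identity over 1046 of the 2884 bases of its transcript, so the assignment of some reads is uncertain.

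Phosphofructokinase, the committing step, has liver-type (Pfkl), muscle-type (Pfkm) and platelet-type (Pfkp) genes. Per length, Pfkp was the lowest of them in every library, and its values separated all 3 groups. Its normalised counts were 35.9, 47.2 and 26.5 in repopulating microglia, 174, 162 and 175 in bone-marrow macrophages and 111 and 69.1 in wild-type microglia, with no overlap between any of the groups. It was 2.42-fold lower in repopulating than in wild-type microglia (-1.28 ± 0.29, adjusted p = 0.0306), 1.94-fold higher in bone-marrow macrophages than in wild-type microglia (0.95 ± 0.29, adjusted p = 0.0264) and 4.69-fold lower in repopulating microglia than in bone-marrow macrophages (-2.23 ± 0.26, adjusted p = 0.000335). The last of these held under all alternatives.

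Without wild-type replicate 1 or 2 the adjusted p of Pfkp in repopulating against wild-type microglia was 0.260 or 0.0687, without repopulating replicate 1 it was 0.0757, and without bone-marrow replicate 1, 2 or 3 it was 0.0683, 0.0652 or 0.0663. In bone-marrow macrophages against wild type the call for Pfkp was lost without bone-marrow replicate 1 (0.0760), 2 (0.0602) or 3 (0.0757) and without wild-type replicate 2 (0.207). Pfkp shares exon sequence with Pitrm1 on the opposite strand, and the library kit does not mark strand. Pfkl had 867, 852 and 863 normalised counts in repopulating microglia, 504, 460.3 and 642 in bone-marrow macrophages and 550.3 and 598 in wild-type microglia. The 3 repopulating libraries were close to each other and above the 5 others. Pfkl was 1.62-fold higher in repopulating microglia than in bone-marrow macrophages (0.70 ± 0.14, adjusted p = 0.00590), which held under all alternatives, whereas against wild-type microglia its difference of 0.58 ± 0.16 had an adjusted p of 0.0548. Pfkl made up 84.4 ± 2.35% of the summed phosphofructokinase level per length in repopulating microglia, 68.1 ± 2.92% in bone-marrow macrophages and 76.2 ± 1.40% in wild-type microglia, and Pfkp 1.80 ± 0.564%, 10.95 ± 1.16% and 6.01 ± 2.21%. Pfkm ranged over 57.6 to 89.8 normalised counts and passed in no comparison.

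**Figure D3:**
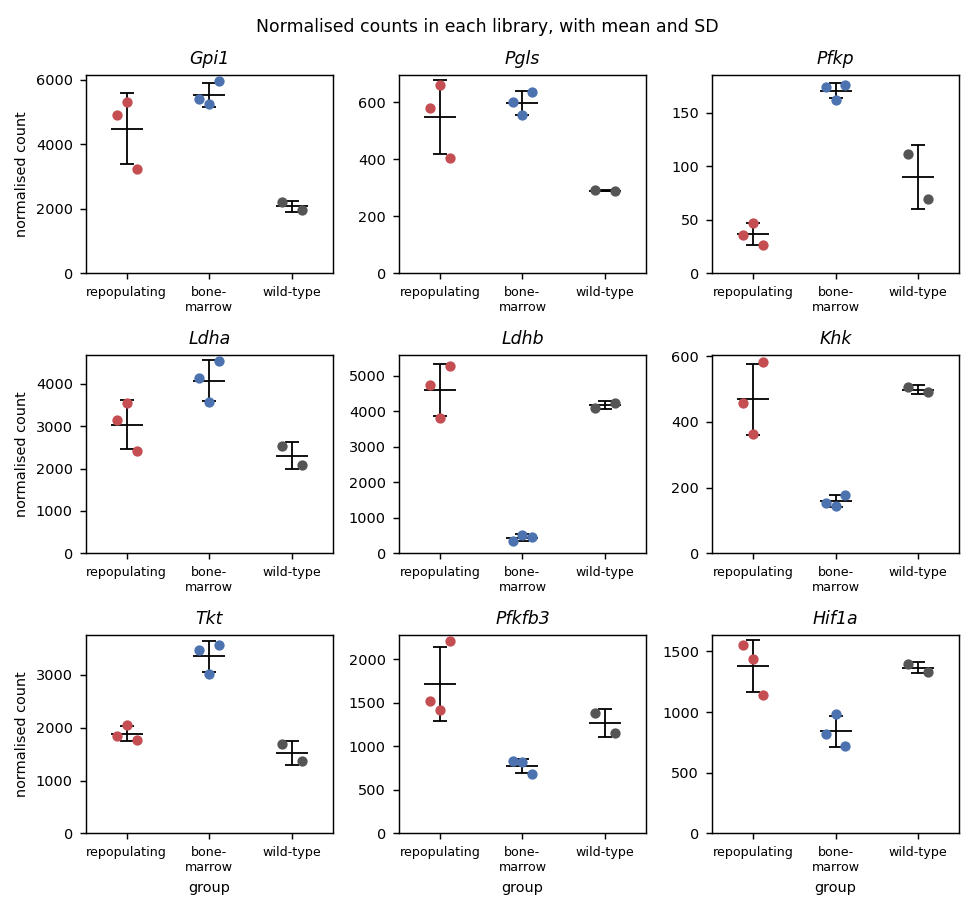
Normalised counts (vertical axes, from 0) of 9 genes in each library (points) of repopulating microglia, bone-marrow macrophages and wild-type microglia, with the mean (long line) and SD (error bar). Gpi1 and Pgls are low in wild-type microglia, Ldhb, Khk, Pfkfb3 and Hif1a are low in bone-marrow macrophages, Tkt and Ldha are highest there on average, and Pfkp differs in all 3 groups.

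Among the enzymes from aldolase to pyruvate kinase, 5 of 9 were higher in bone-marrow macrophages than in wild-type microglia and none passed as lower, beside 21.3% of all genes higher and 22.2% lower. Gapdh, which makes NADH, had 6041, 5453 and 7096 normalised counts in bone-marrow macrophages and 3071 and 2447 in wild-type microglia (1.17 ± 0.23, adjusted p = 0.00362). Triose phosphate isomerase, Tpi1, had 1926, 1720.2 and 2033 in bone-marrow macrophages and 1063 and 891 in wild-type microglia (0.96 ± 0.17, adjusted p = 0.00222). Both had no overlap between these groups.

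Phosphoglycerate mutase, Pgam1, had 2879, 2621 and 2910.0 in bone-marrow macrophages and 1649.8 and 1403 in wild-type microglia (0.88 ± 0.20, adjusted p = 0.00863). The enolase gene Eno1 had 318, 323 and 252 in bone-marrow macrophages and 140.0 and 134 in wild-type microglia (1.11 ± 0.20, adjusted p = 0.00275). Pyruvate kinase, Pkm, had 6943, 6245 and 8029.7 in bone-marrow macrophages and 4184 and 3345 in wild-type microglia (0.91 ± 0.16, adjusted p = 0.00255). Each of these 5 enzymes lay higher in every bone-marrow macrophage library than in either wild-type library. Of the 5 calls that of Pgam1 was lost without wild-type replicate 2 (adjusted p = 0.0759), and the other 4 held under all alternatives.

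Repopulating microglia lay between the other groups on average for Gapdh, Tpi1 and Pkm. Their libraries had 4689, 5681 and 3413 normalised counts of Gapdh, 1540.5, 1612 and 1192 of Tpi1 and 5266, 6160.3 and 5496 of Pkm, all above the wild-type libraries. None passed the test against wild type: the differences were 0.71 ± 0.23 for Gapdh (adjusted p = 0.0863), 0.56 ± 0.17 for Tpi1 (0.0749) and 0.59 ± 0.16 for Pkm (0.0604). With DESeq2 on whole reads Gapdh, Pfkl, Pkm and Tpi1 did pass.

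Against bone-marrow macrophages, Pgam1 and Eno1 were lower in repopulating microglia. Pgam1 had 2044, 2259.6 and 1389 in repopulating microglia, below every bone-marrow macrophage library (-0.59 ± 0.18, adjusted p = 0.0373), and Eno1 had 212, 193 and 145 there, also without overlap (-0.71 ± 0.18, adjusted p = 0.0176). The call for Eno1 was lost without bone-marrow replicate 1 (0.0795) or 2 (0.0718). That for Pgam1 was lost under 8 of 19 alternatives, with adjusted p of 0.0598 without repopulating replicate 1, 0.117, 0.0766 and 0.116 without bone-marrow replicates 1 to 3, and 0.0574 and 0.0570 without wild-type replicates 1 and 2. Eno1 shares 99.5% identity over 1736 of its 2027 transcript bases with Eno1b, which has no entry of that name in the table. Per kilobase of merged exon Eno1 averaged 34.1, 55.4 and 25.5 normalised counts in repopulating, bone-marrow and wild-type libraries, beside 957, 1414 and 770 for Pgam1. Whether reads shared with Eno1b were left out of the Eno1 counts was not tested, and none of the alternatives addressed it. Gapdh, Pgk1, Pgam1 and Pkm also have near-identical copies. The aldolase Aldoa ranged over 2821 to 4525 normalised counts and Pgk1, phosphoglycerate kinase, over 1079 to 2381, and neither passed. Aldoc, an aldolase known from astrocytes, stood at 44.4, 41.3 and 116 in repopulating microglia, 38.6, 50.9 and 45.0 in bone-marrow macrophages and 113 and 85.4 in wild-type microglia. Its bone-marrow macrophage values lay below both wild-type values, with an adjusted p of 0.0582, and it was called lower there under 5 of 19 alternatives, among them the omission of repopulating replicate 2 (adjusted p = 0.0427) or 3 (0.000895). The neuronal enolase Eno2 stood at no more than 17.3 in any library. The 8 astrocyte markers summed to 248 to 2177 in repopulating microglia, 84.7 to 118 in bone-marrow macrophages and 1086 to 6467 in wild-type microglia. Most of these sums in microglia was Slc1a3, a glutamate transporter, at 1387, 182 and 1909 in repopulating microglia, 17.0, 14.8 and 14.1 in bone-marrow macrophages and 987 and 6365 in wild-type microglia. Of the 7 markers tested, Slc1a3 was the 1 that passed between bone-marrow macrophages and wild-type microglia. Gfap, the defining filament protein of astrocytes, had 17.0, 13.3 and 18.4 in repopulating microglia, 14.8, 29.7 and 30.0 in bone-marrow macrophages and 21.4 and 13.2 in wild-type microglia. The part of these markers in Aldoc was not tested.

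The PFKFB enzymes make and degrade fructose 2,6-bisphosphate, an activator of phosphofructokinase. Pfkfb3, the form with the highest kinase activity relative to phosphatase, had 1523, 1412 and 2202 normalised counts in repopulating microglia, 826, 816 and 685 in bone-marrow macrophages and 1380.5 and 1156 in wild-type microglia. The bone-marrow macrophage libraries lay below all 5 microglial libraries. Pfkfb3 was 2.17-fold higher in repopulating microglia than in bone-marrow macrophages (1.12 ± 0.18, adjusted p = 0.00200), under all alternatives, and 1.63-fold lower in bone-marrow macrophages than in wild-type microglia (-0.71 ± 0.20, adjusted p = 0.0216). The second call was lost at equal totals (0.0716) and without bone-marrow replicate 3 (0.0750) or wild-type replicate 1 (0.153) or 2 (0.0558). Genes that respond to cell isolation, 8 in number, summed to 80751 to 123255 in repopulating microglia, 16819 to 31347 in bone-marrow macrophages and 54298 to 81854 in wild-type microglia, and their part in Pfkfb3 was not tested. Pfkfb4 ranged over 754 to 939 and Pfkfb2 over 80.3 to 176 normalised counts, and neither passed.

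In the pentose phosphate pathway, Tkt, Pgd and G6pdx were highest in bone-marrow macrophages. Of the 7 genes, 3 (Tkt, Pgd and Pgls) were called higher in bone-marrow macrophages than in wild-type microglia, beside 21.3% of all genes. Against bone-marrow macrophages, 3 (Tkt, Pgd and G6pdx) were called lower in repopulating microglia, beside 14.9% of all genes. Transketolase, Tkt, which moves carbon between pentose phosphates and glycolysis, had 1852, 2053 and 1765 normalised counts in repopulating microglia, 3469.9, 3015 and 3563 in bone-marrow macrophages and 1684 and 1369.6 in wild-type microglia. Its bone-marrow values lay above all microglial values, and it was 2.20-fold higher than in wild-type microglia (1.14 ± 0.15, adjusted p = 0.000459) and 1.77-fold lower in repopulating microglia than in bone-marrow macrophages (-0.82 ± 0.13, adjusted p = 0.00174). Phosphogluconate dehydrogenase, Pgd, had 2029, 2309.8 and 1581 in repopulating microglia, 3229, 2919.8 and 3167 in bone-marrow macrophages and 1764 and 1710.2 in wild-type microglia. It was 1.79-fold higher in bone-marrow macrophages than in wild-type microglia (0.84 ± 0.17, adjusted p = 0.00413) and 1.59-fold lower in repopulating microglia than in bone-marrow macrophages (-0.67 ± 0.15, adjusted p = 0.00926).

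Glucose-6-phosphate dehydrogenase, G6pdx, which sets the flow into the pathway, had 701, 742 and 581 in repopulating microglia, 1177, 1009 and 1133 in bone-marrow macrophages and 888 and 891 in wild-type microglia. The repopulating libraries were below, and the bone-marrow libraries above, both wild-type libraries. The difference passed between repopulating microglia and bone-marrow macrophages (1.64-fold lower, -0.72 ± 0.13, adjusted p = 0.00339), while against wild-type microglia repopulating microglia differed by -0.41 ± 0.14 (adjusted p = 0.119, 0.0440 at equal totals). Bone-marrow macrophages differed from wild-type microglia by 0.31 ± 0.14 and did not pass (limma adjusted p = 0.112). That difference was called at equal totals, with only those groups fitted and without repopulating replicate 3. The calls of Tkt, Pgd and G6pdx held under all alternatives. Markers of dividing cells, all 8 of them, were higher in bone-marrow macrophages than in either microglial group, and their part in these differences was not tested.

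The lactonase Pgls, between G6pdx and Pgd in the pathway, had another pattern, like that of Gpi1. It had 579, 659.7 and 405 normalised counts in repopulating microglia, 601, 555 and 637 in bone-marrow macrophages and 291 and 288 in wild-type microglia. The repopulating and bone-marrow ranges overlapped (-0.15 ± 0.18, adjusted p = 0.566) and both lay above wild type. Pgls was 1.85-fold higher in repopulating than in wild-type microglia (0.89 ± 0.20, adjusted p = 0.0306) and 2.06-fold higher in bone-marrow macrophages than in wild-type microglia (1.04 ± 0.20, adjusted p = 0.00357), the second under all alternatives. The first was lost without repopulating replicate 1 (0.0854) or 2 (0.0533), without bone-marrow replicate 1 (0.0679), 2 (0.0613) or 3 (0.0624), and without wild-type replicate 1 (0.203) or 2 (0.166). Transaldolase, Taldo1, ranged over 1791 to 3008 normalised counts, the isomerase Rpia over 137 to 267 and the epimerase Rpe over 229 to 583, and none of them passed in the main fit to all libraries. Taldo1 and Rpia were higher in every bone-marrow macrophage library than in any microglial library. Against wild-type microglia these differences were 0.46 ± 0.18 (limma adjusted p = 0.0619) and 0.48 ± 0.21 (0.0917). Both were called at equal totals and without repopulating replicate 3, and Taldo1 also with edgeR and DESeq2.

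**Figure D4:**
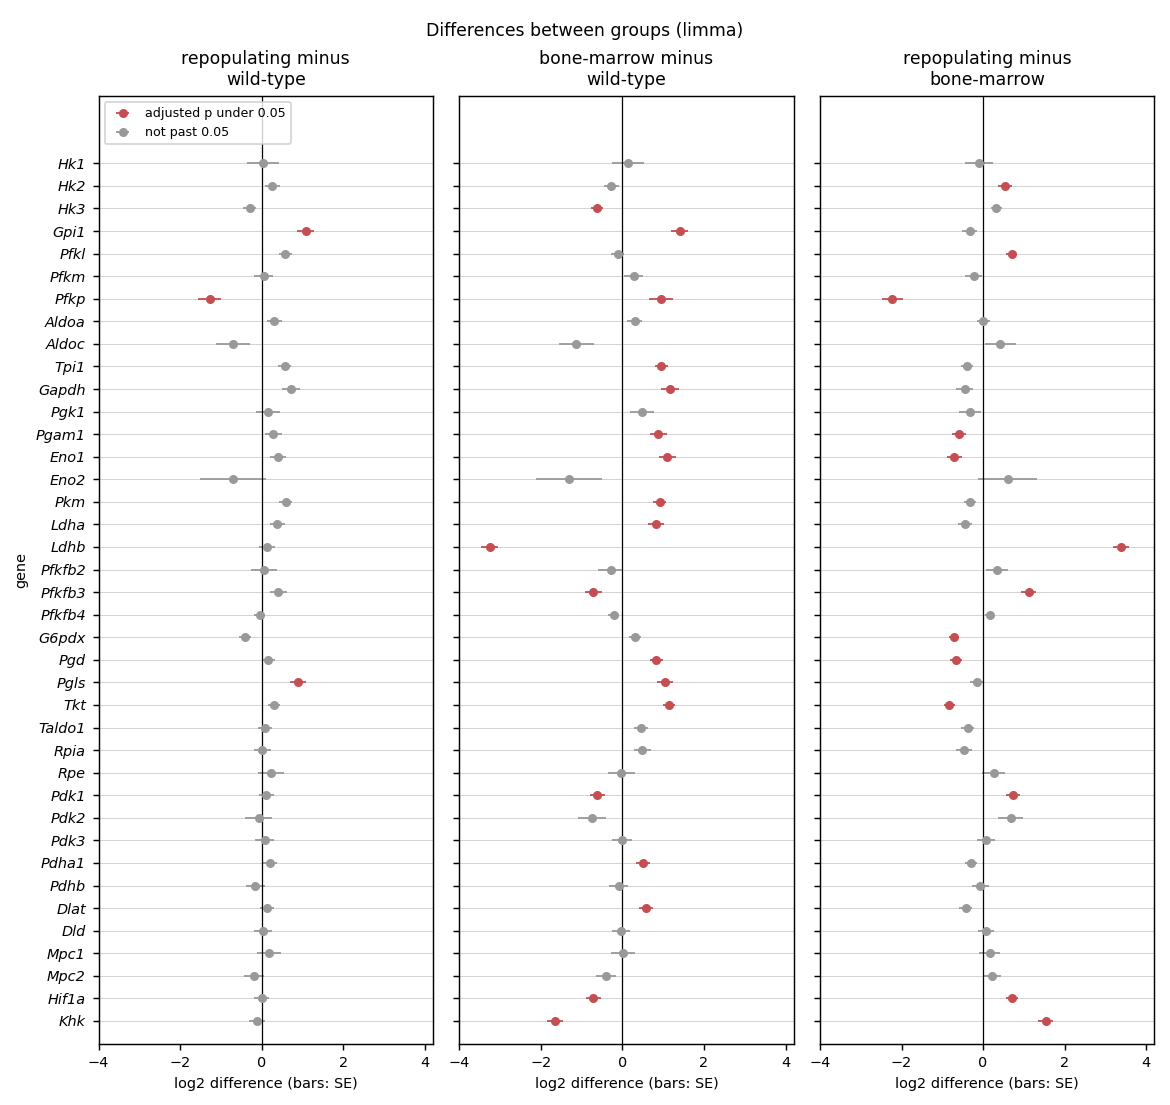
Log2 difference (horizontal axes, log2(normalised count + 1) scale) with its standard error for each of the 39 genes in the 3 comparisons, in red where the limma adjusted p was under 0.05 and grey otherwise. The bone-marrow macrophage comparisons hold the extremes, Ldhb at -3.25 ± 0.21 and 3.38 ± 0.19, while only Gpi1, Pgls and Pfkp are red between repopulating and wild-type microglia.

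At pyruvate entry, the pyruvate dehydrogenase kinase Pdk1, which phosphorylates and switches off the complex, was lowest in bone-marrow macrophages. It had 918, 762 and 1025 normalised counts in repopulating microglia, 502, 584 and 539 in bone-marrow macrophages and 995 and 686 in wild-type microglia. It was 1.53-fold lower in bone-marrow macrophages than in wild-type microglia (-0.61 ± 0.19, adjusted p = 0.0309) and 1.65-fold higher in repopulating microglia than in bone-marrow macrophages (0.73 ± 0.17, adjusted p = 0.0126), and the repopulating and wild-type ranges overlapped. At equal totals both calls were lost (adjusted p = 0.0809 and 0.0629). The call against wild type was also lost without bone-marrow replicate 1 (0.0970), 2 (0.0541) or 3 (0.0790) or wild-type replicate 1 (0.265), and that between repopulating microglia and bone-marrow macrophages without bone-marrow replicate 1 (0.0587).

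Among subunits of the complex, Pdha1, the E1 alpha subunit that the kinases modify, had 754, 705 and 717 normalised counts in bone-marrow macrophages and 541 and 486 in wild-type microglia (0.50 ± 0.17, adjusted p = 0.0383). The E2 subunit Dlat had 263, 307 and 343 in bone-marrow macrophages and 204 and 202 in wild-type microglia (0.57 ± 0.17, adjusted p = 0.0273). Neither overlapped between these groups, and in repopulating microglia Pdha1 had 618, 689 and 480.3 and Dlat 221, 257 and 198. For Pdha1 the call was lost without repopulating replicate 1 (0.0538), bone-marrow replicate 1 (0.112), 2 (0.0799) or 3 (0.0879) and wild-type replicate 1 (0.0997) or 2 (0.197). For Dlat it was lost without bone-marrow replicate 2 (0.0737) or 3 (0.0934) and wild-type replicate 1 (0.115) or 2 (0.117). The E1 beta subunit Pdhb ranged over 355 to 611 normalised counts and the E3 subunit Dld over 514 to 872. Pdk2 ranged over 64.2 to 206 and Pdk3 over 167 to 303, and the carrier subunits over 689 to 1468 for Mpc1 and 179 to 319 for Mpc2. None of these 6 genes passed in any comparison in the main fit to all libraries, and the lowest values of Pdhb, Dld, Pdk3, Mpc1 and Mpc2 were all in repopulating replicate 3. Without that replicate Pdk3, Mpc1 and Mpc2 were called higher in repopulating microglia than in bone-marrow macrophages. Pdk2 and Mpc2 were then called lower in bone-marrow macrophages than in wild-type microglia, as with only those groups fitted. With the replicate block Pdk2 was called in both bone-marrow comparisons.

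Hif1a, the oxygen-regulated subunit of hypoxia-inducible factor 1, was lower in bone-marrow macrophages than in either microglial group. It had 1555, 1438 and 1137 normalised counts in repopulating microglia, 821, 980.0 and 723 in bone-marrow macrophages and 1399 and 1333 in wild-type microglia. The bone-marrow values lay below all the others. Hif1a was 1.64-fold lower in bone-marrow macrophages than in wild-type microglia (-0.71 ± 0.18, adjusted p = 0.0121) and 1.63-fold higher in repopulating microglia than in bone-marrow macrophages (0.71 ± 0.16, adjusted p = 0.00983), the second under all alternatives. The first was lost without wild-type replicate 1 (0.0818) or 2 (0.0587). The protein is controlled mainly through its stability, which these data do not measure. Transcript levels of known targets of the factor moved both ways in bone-marrow macrophages relative to wild-type microglia: Ldha, Gapdh, Eno1 and Pkm were higher, and Pdk1, Pfkfb3 and the glucose transporter Slc2a1 were lower.

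Khk, ketohexokinase, phosphorylates fructose so that it can enter the lower part of glycolysis. It had 458, 365 and 583 normalised counts in repopulating microglia, 153, 143 and 178 in bone-marrow macrophages and 508 and 490.1 in wild-type microglia. Bone-marrow macrophages were below every microglial library, and the microglial groups overlapped (-0.12 ± 0.20, adjusted p = 0.748). Khk was 3.15-fold lower in bone-marrow macrophages than in wild-type microglia (-1.66 ± 0.20, adjusted p = 0.000374) and 2.91-fold higher in repopulating microglia than in bone-marrow macrophages (1.54 ± 0.18, adjusted p = 0.000390), under all alternatives. The fructose transporter Slc2a5, a microglial gene in brain, is not among the 39 but precedes Khk in the same route. Slc2a5 had 3686, 3092 and 4533 in repopulating microglia, 145, 121 and 133 in bone-marrow macrophages and 9067 and 8002 in wild-type microglia, with no overlap between any of the groups. It was 63.8-fold lower in bone-marrow macrophages than in wild-type microglia (-5.99 ± 0.18, adjusted p = 8.16e-07), 27.9-fold higher in repopulating microglia than in bone-marrow macrophages (4.80 ± 0.16, 7.56e-07) and 2.29-fold lower in repopulating than in wild-type microglia (-1.19 ± 0.18, 0.00743). The last call for Slc2a5 was lost without wild-type replicate 1 (adjusted p = 0.101) or 2 (0.0553).

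Leaving out repopulating replicate 3 raised the number of calls between repopulating and wild-type microglia. Of the 38 genes then tested 13 were higher and 3 lower, beside 15.0% of all genes higher and 11.2% lower. The 13 were Gpi1 (log2 difference 1.30, adjusted p = 9.53e-06), Pgls (1.09, 6.49e-05), Gapdh (0.91, 0.00103), Tpi1 (0.69, 0.00150), Pkm, Rpe, Pfkl, Eno1, Ldha, Mpc1, Pgam1, Pgk1 and Pdha1, the last 9 at 0.35 to 0.61. The 3 lower were Aldoc (-1.18, 0.00411), Pfkp (-1.07, 0.00627) and Hk3 (-0.40, 0.0373). Thus 6 of the 9 genes from aldolase to pyruvate kinase, as well as Gpi1 and Ldha, were then higher in repopulating than in wild-type microglia, whereas with all libraries only Gpi1 of these was. No difference between repopulating microglia and bone-marrow macrophages that passed for these 39 genes was lost without replicate 3. Mpc1, Mpc2, Pdk3 and Rpe were then also called higher in repopulating microglia than in bone-marrow macrophages, and Hk1 lower. That made 11 higher and 7 lower of the 38, beside 2660 and 2675 of all 11322 genes. Markers of monocytes and marrow-derived macrophages, 9 of 10 listed in the table, summed to 2014, 3876 and 666 in repopulating replicates 1 to 3. The sums were 7708, 8301 and 6672 in bone-marrow macrophages and 3659 and 3225 in wild-type microglia. These markers did not move together. Between bone-marrow macrophages and wild-type microglia 3 were higher (Ms4a7, Clec12a and Itga4) and 3 lower (Ly6c2, F10 and Ly6i). Between repopulating and wild-type microglia 0 were higher and 4 lower. Ly6c2 averaged 16.8 normalised counts in repopulating microglia, 80.7 in bone-marrow macrophages and 1111 in wild-type microglia. The part of these markers in the numbers of calls was not tested. The share of all normalised counts taken by the 39 genes was 0.595%, 0.661% and 0.584% in repopulating replicates 1 to 3, 0.785%, 0.714% and 0.828% in bone-marrow macrophages and 0.540% and 0.506% in wild-type microglia.

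Related genes outside the 39 were counted in lists around each step, to be read beside the shares of all genes called given above. Of 25 tested glycolytic, gluconeogenic and glycogen genes, 0 were higher and 2 lower in repopulating than in wild-type microglia, 8 higher and 7 lower in bone-marrow macrophages than in wild-type microglia, and 3 higher and 4 lower in repopulating microglia than in bone-marrow macrophages. Their median log2 differences were 0.03, -0.05 and -0.09. Glycogen phosphorylase Pygl (-1.04 ± 0.18, adjusted p = 0.0137) and the phosphatase G6pc3 (-0.50 ± 0.12, 0.0422) were the 2 lower in repopulating microglia. In bone-marrow macrophages G6pc3 was also lower than in wild-type microglia (-1.08 ± 0.12, 0.000256), while the aspartate transaminase Got2 (0.89 ± 0.14, 0.00112) and glycogen synthase Gys1 (1.05 ± 0.19, 0.00286) were higher. Against bone-marrow macrophages, repopulating microglia had less Got2 (-0.75 ± 0.12, 0.00189) and more G6pc3 (0.58 ± 0.11, 0.00448) and Gpd1l (0.53 ± 0.12, 0.00842). The calls for Pygl and G6pc3 against wild type in repopulating microglia were lost without wild-type replicate 1 (0.114 for Pygl and 0.257 for G6pc3) or 2 (0.109 and 0.185), and that of G6pc3 also without repopulating replicate 1 or 2 or any bone-marrow replicate (0.0727 to 0.101).

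Of 10 other pentose phosphate, ribose and NADPH-using genes, 0 were higher and 1 lower in repopulating than in wild-type microglia, 2 higher and 2 lower in bone-marrow macrophages than in wild-type microglia, and 0 higher and 3 lower in repopulating microglia than in bone-marrow macrophages, with medians of -0.21, -0.06 and -0.34. Thioredoxin reductase Txnrd1, which spends NADPH, had 281, 244 and 242 normalised counts in repopulating microglia, 604, 550.4 and 582 in bone-marrow macrophages and 332 and 339 in wild-type microglia. It was higher in bone-marrow macrophages than in wild-type microglia (0.78 ± 0.13, adjusted p = 0.00200) and lower in repopulating microglia than in bone-marrow macrophages (-1.18 ± 0.12, 0.000169), like Tkt and Pgd. The deoxyribose phosphate aldolase Dera behaved alike, with 1.25 ± 0.26 (0.00503) and -0.83 ± 0.23 (0.0254), and Prps1, which makes the ribose phosphate donor of nucleotide synthesis, was lower in repopulating microglia than in bone-marrow macrophages (-0.54 ± 0.17, 0.0408). The calls of Dera and Prps1 between repopulating microglia and bone-marrow macrophages were lost without bone-marrow replicate 1 (0.0900 for Dera and 0.168 for Prps1), 2 (0.0822 and 0.0701) or 3 (0.0607 and 0.0878), and that of Prps1 also without repopulating replicate 2 (0.0548) or wild-type replicate 1 (0.0579) or 2 (0.0573). Glutathione reductase Gsr went the other way: it was lower than in wild-type microglia in repopulating microglia (-1.13 ± 0.19, 0.0131) and in bone-marrow macrophages (-0.74 ± 0.19, 0.0144), both lost without wild-type replicate 1 (0.144 and 0.141) and the second also without bone-marrow replicate 1 (0.0518).

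Transporters of sugars, lactate and sugar phosphates were a further list. Of 13 tested, 1 was higher and 2 lower in repopulating than in wild-type microglia, 1 higher and 7 lower in bone-marrow macrophages than in wild-type microglia, and 8 higher and 2 lower in repopulating microglia than in bone-marrow macrophages, with medians of -0.09, -0.46 and 0.44. Slc2a1, the main basal glucose transporter, had 958, 652 and 753 normalised counts in repopulating microglia, 397, 399 and 454 in bone-marrow macrophages and 964 and 881 in wild-type microglia. It was lower in bone-marrow macrophages than in wild-type microglia (-1.15 ± 0.17, adjusted p = 0.00111) and higher in repopulating microglia than in bone-marrow macrophages (0.90 ± 0.16, 0.00272). Slc2a9, a urate and hexose transporter, moved likewise (-1.18 ± 0.20, 0.00191, and 1.22 ± 0.18, 0.00113). Slc2a6, a lysosomal hexose transporter of macrophages, was higher than in wild-type microglia in bone-marrow macrophages (2.28 ± 0.40, 0.00234), and in repopulating microglia its 1.55 ± 0.40 (adjusted p = 0.0489) held only in part of the alternatives and was lost without each library but repopulating replicate 3 (0.0832 to 0.258). Emb, a partner protein of lactate transporters, had 52.9, 50.2 and 11.5 in repopulating microglia, 578, 539.8 and 487 in bone-marrow macrophages and 334 and 279 in wild-type microglia. It was lower in repopulating microglia than in bone-marrow macrophages (-4.04 ± 0.49, 0.000433) and than in wild-type microglia (-3.23 ± 0.55, 0.0122), the second difference lost without wild-type replicate 1 (0.129) or 2 (0.0808).

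Of 11 other tested genes of pyruvate and acetyl-CoA, 1 was higher in repopulating than in wild-type microglia, 2 were higher in bone-marrow macrophages than in wild-type microglia, 1 was higher in repopulating microglia than in bone-marrow macrophages, and 0 were lower in any, with medians of 0.19, -0.04 and -0.03. Acly, which makes cytosolic acetyl-CoA from citrate, had 2263, 2219.7 and 2399 normalised counts in repopulating microglia, 1287, 1259 and 1358 in bone-marrow macrophages and 1199 and 1489.5 in wild-type microglia. Repopulating microglia lay above both other groups without overlap (0.78 ± 0.13 against wild type, adjusted p = 0.0124, and 0.82 ± 0.12 against bone-marrow macrophages, 0.00108), and the call against wild type was lost without wild-type replicate 1 (0.146). Ogdh (0.50 ± 0.12, 0.00856) and citrate synthase Cs (0.48 ± 0.14, 0.0223), enzymes of the citric acid cycle, were higher in bone-marrow macrophages than in wild-type microglia. The call of Ogdh was lost without wild-type replicate 1 (0.0752) and that of Cs without any bone-marrow or wild-type library (0.0534 to 0.153).

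Around Hif1a, 14 genes of oxygen sensing and nutrient-sensing partners were tested, of which 0 passed between repopulating and wild-type microglia, 4 were lower in bone-marrow macrophages than in wild-type microglia, and 4 were higher and 1 lower in repopulating microglia than in bone-marrow macrophages, with medians of -0.00104, -0.15 and 0.32. At an unadjusted p under 0.05, 3 of the 14 differed between repopulating and wild-type microglia, beside 3014 of all 11415 genes. Mlxipl, a glucose-responsive transcription factor that binds E-boxes, had 252, 213 and 697 normalised counts in repopulating microglia, 60.2, 75.3 and 84.7 in bone-marrow macrophages and 435 and 518 in wild-type microglia. It was 6.45-fold lower in bone-marrow macrophages than in wild-type microglia (-2.69 ± 0.44, adjusted p = 0.00160) and 4.55-fold higher in repopulating microglia than in bone-marrow macrophages (2.19 ± 0.39, 0.00336). Vhl, which marks Hif1a for destruction, was lower in bone-marrow macrophages than in wild-type microglia (-1.10 ± 0.18, 0.00144) and higher in repopulating microglia than in bone-marrow macrophages (0.69 ± 0.16, 0.0108, 0.0501 without bone-marrow replicate 3). Egln3, an oxygen sensor and itself a target of the factor, moved likewise at low counts (-2.12 ± 0.52, 0.0109, lost without wild-type replicate 1 at 0.0974, and 2.94 ± 0.46, 0.00169). Cited2, a competitor of the factor for its coactivator, had 1179.7, 1638 and 853 in repopulating microglia and 823 and 924 in wild-type microglia and did not pass between them. Nor did Vhl, at 1135, 999 and 809 in repopulating microglia and 1440.3 and 1163 in wild-type microglia.

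Of 18 other genes known to respond to low oxygen, 1 was higher and 1 lower in repopulating than in wild-type microglia, 4 higher and 7 lower in bone-marrow macrophages than in wild-type microglia, and 7 higher and 2 lower in repopulating microglia than in bone-marrow macrophages, with medians of -0.09, -0.51 and 0.32. The collagen prolyl hydroxylase P4ha1 had 2476, 2357 and 2156 normalised counts in repopulating microglia, 1087, 1093 and 1209 in bone-marrow macrophages and 2730.0 and 3026 in wild-type microglia (-1.35 ± 0.13 between the last 2, adjusted p = 9.00e-05, and 1.04 ± 0.11 between the first 2, 0.000239). The Myc antagonist Mxi1 was also lower in bone-marrow macrophages than in wild-type microglia (-1.41 ± 0.15, 0.000174) and higher in repopulating microglia than in bone-marrow macrophages (1.41 ± 0.13, 0.000124). Carbonic anhydrase Car9, by contrast, was lower in repopulating microglia than in bone-marrow macrophages (-2.11 ± 0.26, 0.000511). Ndrg1 (-1.42 ± 0.28, 0.0207) was lower and P4ha2 (2.38 ± 0.58, 0.0410) higher in repopulating than in wild-type microglia, and both calls were lost without repopulating replicate 1 (0.0602 for Ndrg1 and 0.108 for P4ha2) or wild-type replicate 1 (0.206 and 0.158) or 2 (0.0812 and 0.220), that of P4ha2 also without repopulating replicate 2 (0.0795) or any bone-marrow replicate (0.0801 to 0.0828).

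Levels of different genes can be set side by side only per length. Per kilobase of merged exon, Ldhb averaged 2933 ± 472 normalised counts in repopulating microglia, 283 ± 60.9 in bone-marrow macrophages and 2654 ± 70.6 in wild-type microglia (SD). In bone-marrow macrophages the highest levels were those of Gapdh at 1499 ± 201, Pgam1 at 1414 ± 80.2 and Pkm at 1414 ± 179.9, which do not differ beyond their spread. In repopulating microglia Pkm, Gapdh, Taldo1 and Aldoa followed Ldhb at 1128 ± 92.9, 1112 ± 275, 1036 ± 191 and 1033 ± 172, again within their spread. In wild-type microglia Taldo1 at 968 ± 131 and Aldoa at 828 ± 94.98 followed. Khk ranked 14 of 39 in both microglial groups and 26 in bone-marrow macrophages. Pfkp and Eno2 were the lowest of the 39 in every group. Lengths of the longest transcript in place of merged exons changed the order below Ldhb in the microglia and put Pkm first in bone-marrow macrophages.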

How the data were processed

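Values were deposited by the authors as a signal: gene counts scaled by 1 factor for each library. This was read from the values, since 100% came out as whole reads within 0.01. Whole reads were recovered by undoing this scaling. Per the submitters' processing notes DESeq 1.14.0, HTSeq, TopHat2 2.0.10 and Bowtie2 2.1.0.0 were used with build mm10. For the annotation and strand setting, the sources used here give nothing. Columns were assigned by their names and replicate numbers, and the columns named mono were taken as the bone-marrow macrophages by exclusion. The table held 23413 genes, 7003 of them at 0 in every library.

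All 39 genes were selected by symbol. The genes and the lists around them were chosen with earlier results of these data known. Named genes are all 39 and, from each related list and comparison, up to 3 ranked by adjusted p, or if none passed the 2 of highest mean. Tests used log2(normalised count + 1), which understates changes of genes with low counts, for 11415 genes that reached 10 normalised counts in 2 or more libraries. They were fitted with limma 3.58.1 (R 4.3.3, variance trend, all 8 libraries in 1 model, two-sided, Benjamini-Hochberg threshold 0.05). Alternatives were other pseudocounts, filters and scalings, fits without each library, without the trend, with a replicate block or with the compared groups alone, and edgeR 4.0.16 and DESeq2 1.42.0 on the whole reads. The fit was also run on simulated counts in which only genes with higher counts were changed, with the same dispersion of a gene in every group. That simulation held no changed genes with low counts and no library that stands apart, and no result here rests on it. Lengths are from GENCODE vM21 (GRCm38, the assembly also called mm10), and figures were drawn with matplotlib 3.10.9. Copies were found with minimap2 2.31 (at least 95% identity over 200 bases), and 14 of the genes had a match in another gene. For Pfkp, Pfkfb2, Rpe and Pdha1 that match was a gene whose exons overlap their own, not a copy elsewhere. Reads of near-identical copies, and of genes on the other strand, cannot be told apart where counting was not stranded.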

Additional observations from a re-analysis of the deposited data

How the results depend on the processing

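Between repopulating and wild-type microglia 983 genes were called, against 82 with only these groups fitted, 1625 with DESeq2 and 67 to 2969 without a library each. Of the 39 genes, 2 were called higher there, against 1 without the variance trend, 0 with only these groups fitted, 6 with DESeq2 and 0 to 13 without a library. The 1 called lower became 2 at equal totals, 0 with the replicate block, 0 with only these groups and 0 to 3 without a library. Between bone-marrow macrophages and wild-type microglia 4960 genes became 2821 to 6992 without a library, the 13 called higher became 8 to 17, and the 6 called lower became 2 to 10, and 10 with only these groups. Between repopulating microglia and bone-marrow macrophages 3526 genes became 2212 to 5335 without a library, the 7 called higher became 5 to 11, and the 6 called lower became 4 to 9, and 15 at equal totals. The cause of these changes was not tested, although fits with fewer libraries have fewer degrees of freedom. Without a wild-type library, the remaining one was taken to vary like the other groups. The count test of edgeR on whole reads called 969, 5040 and 3568 genes. DESeq2 called 956 of all 11415 genes higher and 669 lower between repopulating and wild-type microglia. With only bone-marrow macrophages and wild-type microglia fitted, 3463 of 11190 genes were called lower. The other results of this kind stayed within 1.5 times.

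Of the differences printed, 2 that had not passed changed sign when a library was left out: Khk between repopulating and wild-type microglia was 0.051 without repopulating replicate 2 and -0.2868 without replicate 3, and Pgls between repopulating microglia and bone-marrow macrophages was 0.0509 without repopulating replicate 3 and -0.2996 without replicate 2. Other small differences among the 39 genes that had not passed changed sign under another scaling, such as Aldoa between repopulating microglia and bone-marrow macrophages, at -0.25 with equal totals and 0.01 on the deposited scale. Pgls and Pfkp between repopulating and wild-type microglia did not pass with only those groups fitted. No pairing by replicate number was apparent: deviations of same-numbered libraries correlated at -0.240 to 0.244, and 3 of 8 libraries correlated best with their own number. Deviations from means of 2 or 3 libraries constrain each other, so this check cannot exclude pairing. With the replicate block 733, 4811 and 3564 genes were called, and Pfkp between repopulating and wild-type microglia had an adjusted p of 0.0688. Counts were lowest for Eno2, which had at most 17.3 normalised counts. Pfkp was also low, with 93 reads over the 3 repopulating libraries and 172 over the 2 wild-type libraries. How far depth limits the results on such genes was not tested.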
